A study of Mus musculus with 9 samples.

Results

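Zinc transporters and metallothioneins were followed at the mRNA level in MyC-CaP cells, a mouse prostate cancer line that responds to androgen. The 10 genes were chosen by name from the 15384 protein-coding genes of the deposited count table: the metallothioneins Mt1 and Mt2, the transcription factor Mtf1, the SLC30 transporters Slc30a1 and Slc30a4, and the SLC39 transporters Slc39a1, Slc39a4, Slc39a6, Slc39a10 and Slc39a14. All 10 were in the table and all 10 passed the filter on low counts in each comparison. The study asked how asporin (ASPN), a matrix protein made by cancer-associated fibroblasts, acts on prostate cancer cells. Its RNA-Seq series of MyC-CaP cells with ASPN comprised 9 libraries, 3 at each of 3 times. Cells of all 3 groups were of the same line, plated in triplicate and deprived of serum and calcium for 6 to 12 hours. The first group was collected at 0 hours, the second after 12 hours with recombinant ASPN at 100 ng/mL, and the third after 24 hours with ASPN at that dose. The labels name ASPN as the treatment of the 0 hour libraries too, and the study used them as its time 0, which was followed here. No library of cells kept for 12 or 24 hours without ASPN was analysed here, so ASPN and the time in culture cannot be told apart in a comparison with time 0.

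Zinc is held at a very low free concentration in the cytosol. SLC39 proteins (ZIP) bring zinc into the cytosol from outside or from organelles, SLC30 proteins (ZnT) move it out of the cell or into vesicles, and metallothioneins are small cysteine-rich proteins that bind zinc and copper. MTF1 senses zinc and activates genes through metal response elements, among them Mt1, Mt2 and Slc30a1. The normal prostate is known for an unusually high zinc content, which is lost in prostate cancer in humans.

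The metal response element is the sequence through which MTF1 acts on several of these genes. Its core was therefore searched in promoter windows of GRCm38.p6, each of which spans a RefSeq start. The core was spelled as TGCACNC, found on either strand in 12.6% of 32851 promoters, or TGCGCNC, found in 15.4%; 25.7% held at least 1 of the 2. Promoters of 7 of the 10 genes were matched by symbol, 8 sequences in all since Slc39a10 has 2 starts. Slc39a4, Slc39a6 and Slc39a14 were not matched. At least 1 core stood in the promoters of Mt1, Mt2, Slc30a1 and Slc30a4, and none in those of Mtf1, Slc39a1 and Slc39a10. The windows of Mtf1 (chr4:124802299-124802598) and Slc39a10 (chr1:46925727-46926026 and chr1:46853569-46853868) do not hold the start of the gene as it was counted. For these genes that start was not searched. The cores of both metallothioneins and of Slc30a1, the genes known as MTF1 targets, are printed with 11 bases on each side, 5′ to 3′ in the direction of the gene. Capitals mark the core, which reads as its reverse complement where it lies on the opposite strand, and the number is the distance of its first base from the RefSeq start.
Mt1, -23, chr8:94179055-94179083: cggtcccgctgTGCACACtggcgctccag
Mt1, 3, chr8:94179080-94179108: ccagggagctcTGCACTCcgcccgaaaag
Mt1, 21, chr8:94179098-94179126: cgcccgaaaagTGCGCTCggctctgccaa
Mt2, -223, chr8:94172384-94172412: agcatcgcctcTGCACCCggcccctcggg
Mt2, -128, chr8:94172479-94172507: cgcagacccttTGCGCTCagctcctttgc
Mt2, -50, chr8:94172557-94172585: ggggggagggcGTGTGCAggctctgtccc
Mt2, 5, chr8:94172611-94172639: gaattcgggtcGTGCGCAggcccaggggc
Slc30a1, -43, chr1:191906727-191906755: acgggggttccGAGTGCAaagcaaagttt
Slc30a1, 31, chr1:191906800-191906828: gcctccgggccGAGCGCAgtcgccgcgga
Slc30a4 held 3 cores, 2 before its start and 1 that ends on the first base. A match of these letters is a description of the sequence and not a bound site.

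The deposited values were raw counts, 41881191 to 52993821 per library. Levels are given as CPM, counts scaled by the library total and edgeR's TMM factors over the 9 libraries. Scaled by the library total alone, without the TMM factors, 3 counts, taken as the floor, corresponded to 0.0566 to 0.0716 CPM. The 3 libraries of 24 hours stood apart from the other 6: their TMM factors were 0.898 to 0.911 against 1.04 to 1.07 at the earlier times, and 13 mitochondrial genes took 0.113% to 0.203% of their counts against 2.60% to 2.85%. The part of this in the results at 24 hours was not tested. Replicates were distinct libraries, with a chi-square per degree of freedom between 3.41 and 17.5 for their counts, and since the labels call them biological replicates of 1 line without naming separate cultures beyond the triplicate wells, p-values measure the spread between these samples. Among markers of prostate luminal epithelium, Cdh1, Epcam and Krt18 were under 1 CPM at every time, and Krt8 was at 24.8 to 42.3 CPM. Fibroblast markers, of which 4 of 6 were in the table, summed to 13.2 to 15.1 CPM at 0 and 12 hours and 11.1 to 11.9 CPM at 24 hours, nearly all from Pdgfra (log2 fold change -0.51 ± 0.09 at 24 hours), with Col1a1 and Dcn under 1 CPM. Dcn (1.20 ± 0.49) and Postn (0.76 ± 0.25), at 9 to 29 and 74 to 82 counts per library at 24 hours, were called higher then (adjusted p = 0.044 and 0.015, edgeR). So were 12.0% of all tested genes. For Dcn the libraries of 24 hours overlapped with those of time 0, at 7 to 11 counts. The 5 leukocyte markers in the table were each under 1 CPM, and summed to 0.394 to 0.943 CPM. In bulk RNA, fewer cells of a kind and less RNA per cell cannot be told apart.

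The order of the 10 genes by level per length was led by Mt1. Counts were divided by the length of the longest principal transcript for this, which makes levels of different genes comparable. At time 0, Mt1 stood at 793 ± 46 CPM per kb (SD, n = 3), followed by Mt2 at 49.7 ± 1.7 and Slc39a1 at 46.0 ± 2.5. Slc39a14, at 13.2 ± 0.5, and Slc39a6, at 12.7 to 13.3 CPM per kb, came next and overlapped, then Slc30a4 at 9.66 to 10.3, Slc39a10 at 3.58 ± 0.3, Mtf1 at 2.89 ± 0.13, Slc30a1 at 1.35 ± 0.13 and Slc39a4 at 0.0829 ± 0.0029. At 12 hours Slc39a1, at 62.5 ± 1.3, overlapped with Mt2, at 59.7 ± 3.9 CPM per kb. At 24 hours Slc30a4, at 16.2 ± 0.74, had passed Slc39a14, at 12.3 ± 0.41, and Slc39a4, at 1.43 ± 0.18 CPM per kb, had passed Slc30a1, at 0.509 ± 0.086, while Mtf1, at 2.66 ± 0.1, and Slc39a10, at 2.65 ± 0.31, overlapped. Slc39a6 and Slc39a14 overlapped at 12 hours too, and all other neighbors in the order had separate ranges over their 3 libraries. With the length of all exons in place of the principal transcript, Mt1 was still first with 350 CPM per kb at time 0, but Slc39a1 passed Mt2 there and Slc39a14 fell to rank 6 with 6.18 CPM per kb.

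**Figure D1:**
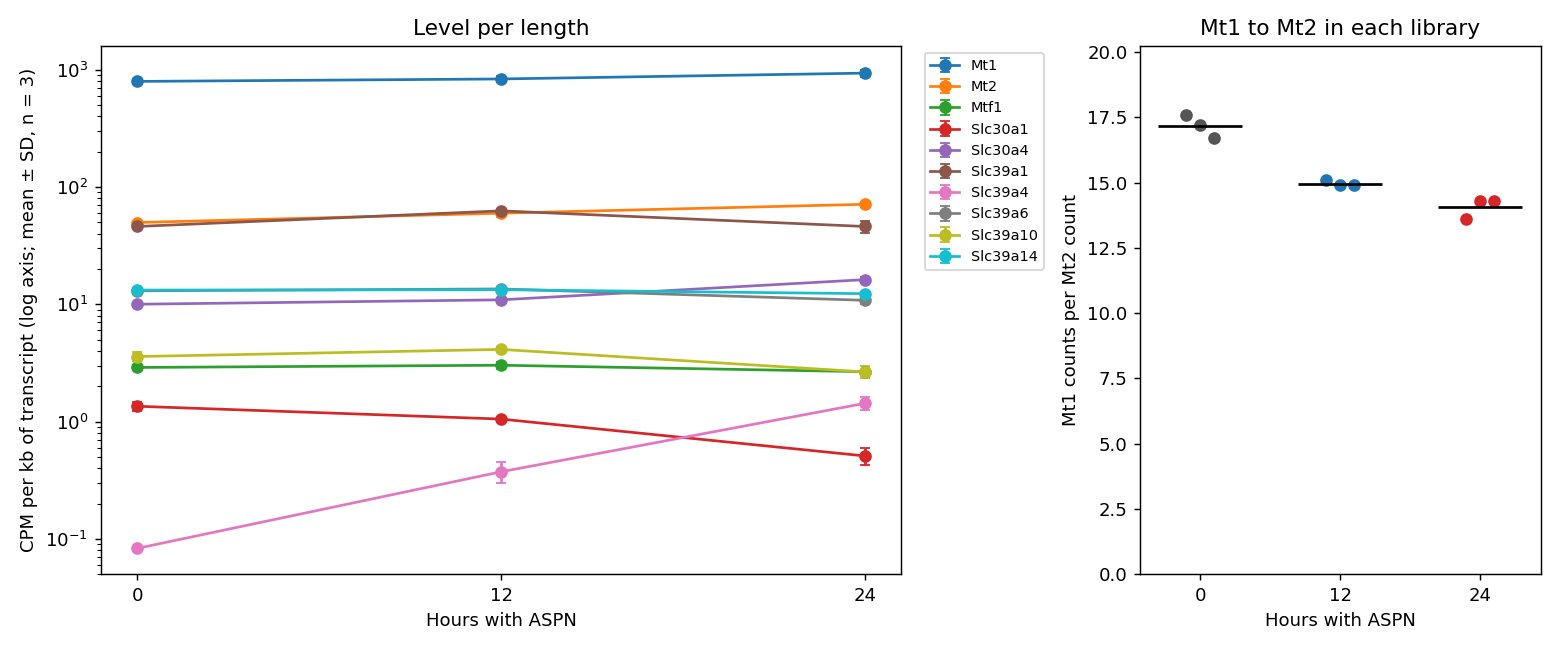
Left, level of each gene per kb of principal transcript on a log axis against hours with ASPN, as mean and SD of 3 libraries; right, counts of Mt1 per count of Mt2 in each of the 9 libraries, with lines at the means. Mt1 lies above all others, the lines of Slc39a4 and Slc30a1 cross between 12 and 24 hours, and the ratio of Mt1 to Mt2 lies between 16.7 and 17.6 at first and between 13.6 and 14.3 at 24 hours.

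Across the treatment the genes did not move as 1 group. Slc39a4 rose at 12 hours and again at 24 hours, Slc30a1 had its lowest levels at 24 hours and Slc30a4 its highest, and Slc39a1 was high at 12 hours and, with TMM scaling, overlapped with its starting level at 24 hours. A gene is said to have risen or fallen where its Benjamini-Hochberg adjusted p by edgeR's quasi-likelihood test, over all tested genes, was 0.05 or less, and it is called where the fold change was also at least 1.5, the thresholds of the study. At 12 hours against time 0, 1 of the 10 genes was called, Slc39a4, which was higher; 1.60% of 11410 tested genes were called, 171 higher and 11 (0.0964%) lower. By the adjusted p alone 4 of 10 passed, 3 that rose (6.85% of all tested genes did) and 1 that fell (3.47%), against 10.3% in either direction. The 3 libraries of 12 hours did not overlap with those of time 0 for 6 of the 10 genes, and for 27.1% of all tested genes. At 24 hours against time 0, 3 of 10 were called, 2 higher (12.0% of 11444 tested genes) and 1 lower (16.8%), and 28.8% of all tested genes were called, so that this share was near that of all genes. By the adjusted p 7 of 10 passed, 4 that rose (34.4% of all) and 3 that fell (36.5%), against 70.9% in either direction, and 8 of 10 did not overlap with time 0, against 74.0%. Between 12 and 24 hours, 4 of 10 were called, 2 higher (10.4% of 11394 tested genes) and 2 lower (15.3%), against 25.7% in either direction. All 10 passed the adjusted p there, 4 that rose (35.7% of all) and 6 that fell (35.6%), against 71.3%, and 9 of 10 did not overlap, against 73.8%. The median log2 fold change of the 10 genes was 0.10 at 12 hours, -0.06 at 24 hours and -0.13 between them, and that of all tested genes -0.00, -0.02 and 0.00. Both comparisons with time 0 use the same 3 libraries of time 0.

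**Figure D2:**
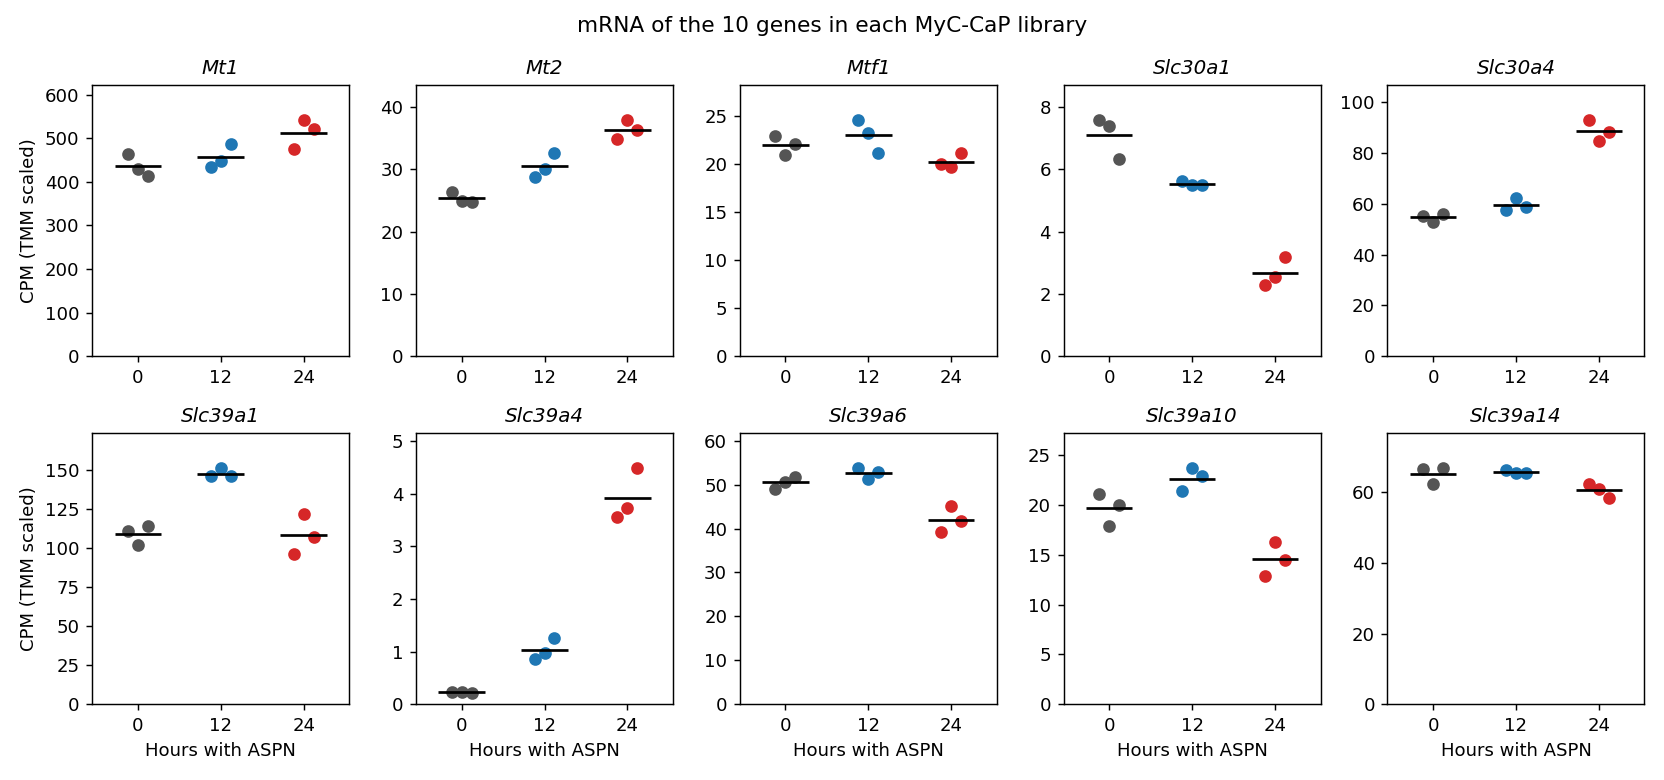
Level of each of the 10 genes (CPM, TMM scaled, linear axes from 0) in every library against hours with ASPN; points are libraries and lines the means of 3. Slc39a4 is between 0.220 and 0.236 CPM at time 0 and between 3.55 and 4.48 CPM at 24 hours, Slc30a1 goes from 6.34 to 7.57 down to 2.30 to 3.17 CPM, and Slc39a1 is highest at 12 hours.

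Slc39a4 (ENSMUSG00000063354.7, GRCm38 chr15:76612383-76617384) encodes ZIP4, the importer through which the intestine absorbs zinc. Its level was 0.228, 0.236 and 0.220 CPM at time 0, 0.853, 0.967 and 1.26 CPM at 12 hours and 3.55, 3.73 and 4.48 CPM at 24 hours. No libraries overlapped between any 2 times, and the counts behind these levels were 11 to 12, 39 to 55 and 145 to 212 per library, all above the floor of 3. Against time 0 the log2 fold change of Slc39a4 was 2.16 ± 0.31 (SE) at 12 hours, a fold of 4.47 with an adjusted p of 0.00011 by edgeR's quasi-likelihood test, and 4.09 ± 0.23 at 24 hours, a fold of 17.1 with an adjusted p of 3.4e-09. From 12 to 24 hours it rose by a further 3.88-fold (log2 1.96 ± 0.18, adjusted p = 5.4e-07). Per kb, its level at 24 hours was still below those of all the other genes but Slc30a1. It was called in all 3 comparisons under each alternative and with each library left out.

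Slc39a1 (ENSMUSG00000052310.9, GRCm38 chr3:90248172-90253612) encodes ZIP1, an importer of the cell surface that is widely expressed and has been described as a zinc importer of prostate epithelium. It stood at 111, 102 and 114 CPM at time 0, at 146, 151 and 146 CPM at 12 hours and at 96.4, 122 and 107 CPM at 24 hours. The 3 libraries of 12 hours lay above all others, and those of 24 hours spread over the range of time 0 on both sides. Slc39a1 rose at 12 hours (log2 fold change 0.44 ± 0.04, a fold of 1.36, adjusted p = 4.6e-07, edgeR), below the 1.5-fold threshold, and fell from 12 to 24 hours by 0.42 ± 0.06 on the log2 scale (adjusted p = 5.4e-05). At 24 hours against time 0 the difference was -0.00 ± 0.07 on the log2 scale (adjusted p = 1), and it depended on the scaling: with total counts it was -0.22 (adjusted p = 0.014), and with RLE factors 0.0118. A processed pseudogene of Slc39a1 is annotated in mouse, and reads may be shared with it.

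Slc39a6 and Slc39a10 encode ZIP6 and ZIP10, close relatives that are known to form a joint complex at the cell surface. Slc39a10 (ENSMUSG00000025986.6, GRCm38 chr1:46807544-46892852) was at 21.1, 17.9 and 20.0 CPM at time 0, 21.4, 23.7 and 22.9 CPM at 12 hours and 12.9, 16.3 and 14.5 CPM at 24 hours. Slc39a6 (ENSMUSG00000024270.11, GRCm38 chr18:24579881-24603817) was at 49.1, 50.6 and 51.8 CPM, then at 53.7, 51.2 and 52.8 CPM, and at 24 hours at 39.2, 45.1 and 41.7 CPM. Both had all 3 libraries of 24 hours below those of the earlier times. Slc39a10 fell by 0.43 ± 0.09 on the log2 scale at 24 hours against time 0 (adjusted p = 0.00093) and by 0.62 ± 0.08 against 12 hours, a 1.53-fold decrease that was called (adjusted p = 1.3e-05, edgeR's quasi-likelihood test). Slc39a6 fell by 0.26 ± 0.06 against time 0 and by 0.30 ± 0.05 against 12 hours (adjusted p = 0.0009 and 0.00019), and was called in no comparison. At 12 hours neither passed the test, with log2 fold changes of 0.21 ± 0.07 for Slc39a10 (adjusted p = 0.062) and 0.06 ± 0.04 for Slc39a6 (adjusted p = 0.42). Without the first library of 24 hours, the lowest for Slc39a10, its decrease from 12 hours was 0.54 and no longer called; without the first library of time 0, its 12 hour difference of 0.26 passed the adjusted p (0.011), as the 0.21 did with no filter on low counts (0.017).

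Slc39a14 (ENSMUSG00000022094.15, GRCm38 chr14:70303469-70351425) encodes ZIP14, which carries iron and manganese as well as zinc. It varied little, with 66.5, 62.4 and 66.7 CPM at time 0, 66.1, 65.3 and 65.3 CPM at 12 hours and 62.3, 60.8 and 58.3 CPM at 24 hours. The libraries of 24 hours were below all others. The log2 fold change of Slc39a14 was 0.01 ± 0.04 at 12 hours (adjusted p = 0.91) and -0.11 ± 0.05 at 24 hours (adjusted p = 0.052), and from 12 to 24 hours it fell by 0.10 ± 0.04 (adjusted p = 0.044), which was over 0.05 under several alternatives, DESeq2 (0.064) included. After correction for the length of all exons and the GC content of the longest transcript the sign turned. The values were then 0.23 at 24 hours against time 0 (adjusted p = 0.00033, edgeR) and 0.22 against 12 hours (adjusted p = 0.00014). All exons of Slc39a14 span 10550 bases, against 4926 in its principal transcript. No direction can be given for this gene.

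Slc30a1 (ENSMUSG00000037434.7, GRCm38 chr1:191906767-191913247) encodes ZnT1, the main zinc exporter of the plasma membrane. Its level was 7.57, 7.39 and 6.34 CPM at time 0, 5.62, 5.48 and 5.49 CPM at 12 hours and 2.30, 2.53 and 3.17 CPM at 24 hours, from 94 to 365 counts per library. Each time lay wholly below the one before it. Slc30a1 fell at 24 hours by 1.40 ± 0.14 on the log2 scale, a 2.65-fold decrease against time 0 (adjusted p = 9.2e-07, edgeR), and by 1.03 ± 0.13, or 2.04-fold, against 12 hours (adjusted p = 1.2e-05). Both decreases were called under each alternative and with each library left out. The smaller decrease at 12 hours, 0.36 ± 0.10 on the log2 scale, had an adjusted p of 0.032, but 0.082 with all 9 libraries in 1 fit and 0.071 to 0.11 with any library other than the third of time 0 left out. An antisense gene, 1700034H15Rik, overlaps 468 exon bases of Slc30a1, and whether the counting used strand is not given in the sources used here.

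Slc30a4 (ENSMUSG00000005802.12, GRCm38 chr2:122681233-122702663) encodes ZnT4, which loads zinc into vesicles of the endosomal and secretory pathways. It was at 55.1, 52.7 and 56.1 CPM at time 0, 57.4, 62.2 and 58.8 CPM at 12 hours and 92.8, 84.8 and 88.4 CPM at 24 hours. All libraries of 24 hours were above those of both earlier times. Slc30a4 rose at 24 hours against time 0 by 1.62-fold (log2 0.70 ± 0.05, adjusted p = 2.7e-08, edgeR) and against 12 hours by 1.51-fold (log2 0.59 ± 0.05, adjusted p = 1e-07). At 12 hours against time 0 its log2 fold change was 0.12 ± 0.04 (adjusted p = 0.068, and 0.039 with no filter on low counts). Both increases lay close to the 1.5-fold threshold and lost the call with total-count scaling (log2 0.48 and 0.37) and with the length and GC correction (0.57 and 0.45), and the second also with all 9 libraries in 1 fit (0.576), without the first library of 12 hours (0.57) or without the first of 24 hours (0.56), while their adjusted p stayed under 0.05 in all of these. A gene on the opposite strand, 4930417H01Rik, overlaps 130 exon bases of Slc30a4. The pair of SLC30 genes had opposite signs at 24 hours under each alternative.

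**Figure D3:**
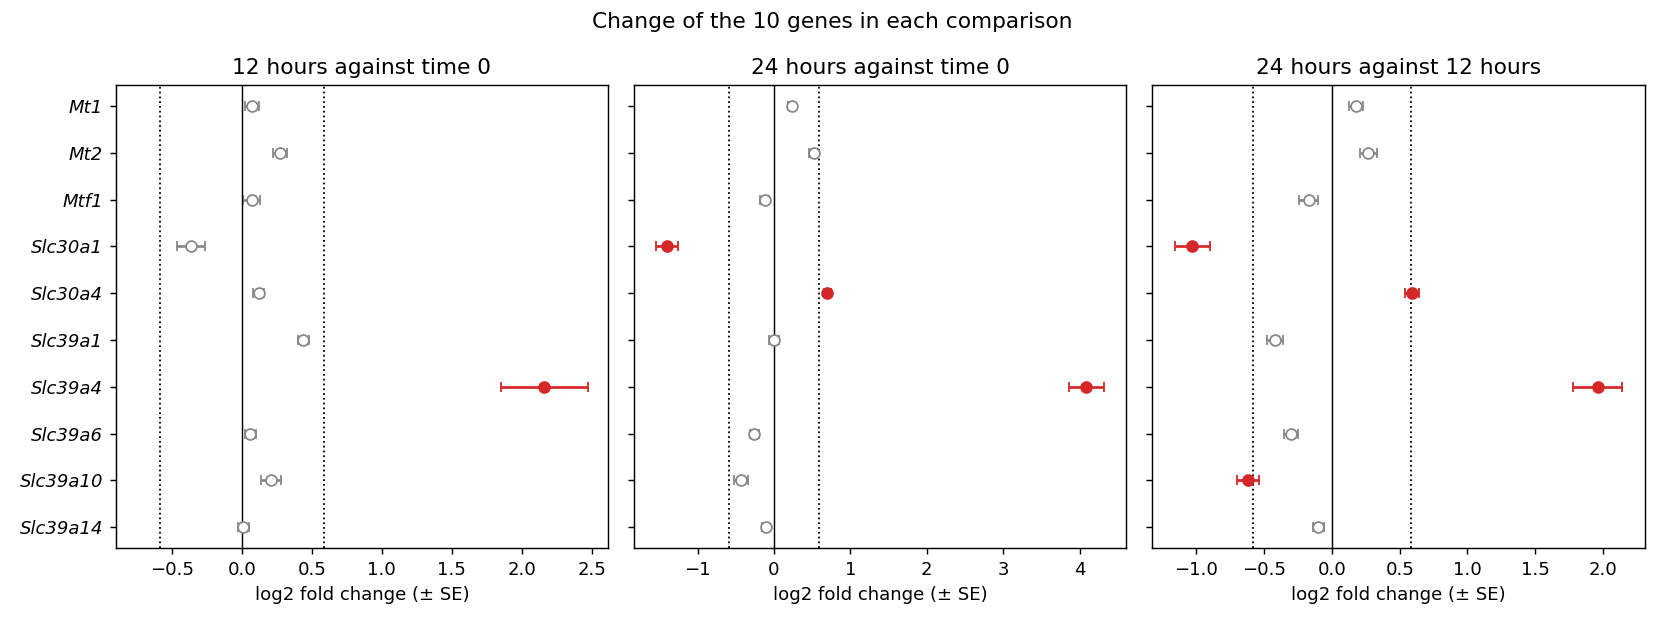
Log2 fold change of the 10 genes with its SE (bars) in the 3 comparisons, from edgeR's quasi-likelihood test on 6 libraries each; filled red points are called and dotted lines mark 1.5-fold. Slc39a4 is to the right in each panel, Slc30a1 to the left at 24 hours, and Slc39a1 at 0.44, -0.00 and -0.42.

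The metallothioneins lie about side by side on chromosome 8 and moved by small amounts. Mt1 (ENSMUSG00000031765.8, GRCm38 chr8:94179082-94180327) was at 463, 430 and 414 CPM at time 0, 435, 448 and 487 CPM at 12 hours and 476, 541 and 520 CPM at 24 hours. Mt2 (ENSMUSG00000031762.7, GRCm38 chr8:94172664-94173568) was at 26.4, 25.0 and 24.8 CPM, then at 28.8, 30.1 and 32.7 CPM, and at 24 hours at 34.9, 37.9 and 36.3 CPM. For Mt2 each time lay above the one before it without overlap; for Mt1 the libraries of 12 hours overlapped with both other times, and those of 24 hours lay above time 0.

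Mt2 rose at 12 hours (log2 fold change 0.27 ± 0.05, adjusted p = 0.0032, edgeR) and at 24 hours (0.52 ± 0.06, a fold of 1.43, adjusted p = 2.1e-06), and between them (0.27 ± 0.06, adjusted p = 0.00092). Mt1 had a log2 fold change of 0.07 ± 0.05 at 12 hours (adjusted p = 0.42, and 0.032 without the first library of time 0), and rose by 0.23 ± 0.05 at 24 hours against time 0 (adjusted p = 0.0018) and by 0.18 ± 0.05 against 12 hours (adjusted p = 0.0055). Neither was called in any comparison. The values at 24 hours depend on the scaling and on the correction for length and GC content. Total counts put the median of all genes at -0.24 against time 0, with Mt1 at 0.01 (adjusted p = 0.83, edgeR) and Mt2 at 0.30 (adjusted p = 0.00037). With the length and GC correction Mt1 and Mt2 were at 0.03 (adjusted p = 0.6) and 0.21 (adjusted p = 0.0037). From 12 to 24 hours the same 2 settings gave -0.04 and -0.05 for Mt1 and 0.05 and -0.08 for Mt2, with adjusted p of 0.5, 0.39, 0.47 and 0.23. The rise of both genes after 12 hours was thus not kept under these settings. With RLE and upper-quartile factors it was, at 0.18 and 0.21 for Mt1 and 0.27 and 0.30 for Mt2. Mt2 overlaps an antisense gene, Gm45774, over 432 exon bases, and Mt1 and Mt2 are paralogs between which reads may be shared.

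A ratio of 2 genes' counts within a library is not changed by a factor for the whole library, though a correction by gene length and GC content can change it, and 3 such ratios were formed after the values were seen. Mt1 had 17.6, 17.2 and 16.7 counts per count of Mt2 at time 0, 15.1, 14.9 and 14.9 at 12 hours and 13.6, 14.3 and 14.3 at 24 hours, with no overlap between times. The smallest p that 3 against 3 libraries can give in an exact permutation test is 0.1 (two-sided), which each of these differences had (0.13 adjusted over 9 tests). With the length and GC correction the order of Mt1 and Mt2 from 12 to 24 hours turned, with log2 fold changes of -0.05 and -0.08. Counts of Slc39a1 per count of Slc30a1, an importer of the cell surface against its exporter, were 14.6, 13.8 and 17.9 at time 0, 26.0, 27.6 and 26.6 at 12 hours and 41.8, 48.4 and 33.9 at 24 hours. The times were again separate, with the ratio 1.74-fold higher at 12 hours and 2.67-fold at 24 hours than at time 0 (exact permutation p = 0.1 for each, the smallest possible). Slc39a6 had 2.33 to 2.83 counts per count of Slc39a10 at time 0, against 2.50, 2.16 and 2.30 after 12 hours and 2.76 to 3.03 after 24, and both later times overlapped with time 0 (exact permutation p = 0.2). Between 12 and 24 hours that ratio did not overlap and was 1.25-fold higher at 24 hours (exact permutation p = 0.1).

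Mtf1 (ENSMUSG00000028890.13, GRCm38 chr4:124802104-124849800), whose protein activates the metallothionein genes when zinc is high, was at 23.0, 21.0 and 22.1 CPM at time 0, 24.6, 23.3 and 21.2 CPM at 12 hours and 20.0, 19.7 and 21.2 CPM at 24 hours. The libraries of 24 hours overlapped with time 0 and lay just below those of 12 hours. Its log2 fold change was 0.07 ± 0.06 at 12 hours (adjusted p = 0.61) and -0.12 ± 0.06 at 24 hours (adjusted p = 0.1), or -0.34 with total counts (adjusted p = 0.00029). From 12 to 24 hours it fell by 0.17 ± 0.07 (adjusted p = 0.036, edgeR), but the adjusted p was over 0.05 with any 1 of 4 libraries left out, the first or second of either time. The log2 fold change was -0.39 with total counts (adjusted p = 0.00014) and 0.03 with the length and GC correction (adjusted p = 0.72). Its mRNA does not report the activity of the protein, and 721 of its exon bases overlap a gene on the opposite strand, 1110065P20Rik.

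Of the other SLC30 genes, 6 of 8 were in the table and tested, and none was called at 12 hours, beside 1.60% of all tested genes. At 24 hours 2 of the 6 were called, both lower, where 28.8% of all tested genes were called and 16.8% lower: Slc30a5, which with Slc30a6 supplies zinc to enzymes of the secretory pathway, and Slc30a7, which has a like role. Slc30a5 went from 110, 112 and 116 CPM at time 0 through 107, 106 and 106 CPM to 54.3, 58.5 and 54.0 CPM at 24 hours (log2 fold change -1.02 ± 0.05, adjusted p = 7.9e-10, edgeR). Slc30a7 rose slightly at 12 hours, from 42.4, 42.6 and 42.6 CPM to 48.5, 50.3 and 48.9 CPM (0.22 ± 0.04, adjusted p = 0.00093), and fell to 27.3, 29.1 and 25.6 CPM at 24 hours (-0.64 ± 0.06, adjusted p = 3.5e-07). The remaining members moved by less than 1.5-fold: at 24 hours Slc30a6 fell by 0.45 ± 0.06 and the vesicle transporter Slc30a2 rose by 0.50 ± 0.05 (adjusted p = 2.6e-05 and 1.5e-06), while Slc30a9 was at -0.00 ± 0.05 and Slc30a3, under 1 CPM, at 0.56 ± 0.47. Slc30a8 and Slc30a10 were not among the genes used here.

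Of the other SLC39 genes, 8 of 9 were in the table and 6 were tested against time 0. At 12 hours none was called or rose or fell, beside 1.60% of all tested genes called. At 24 hours 1 of the 6 was called, beside 28.8% of all tested genes: Slc39a11 was lower (as 16.8% of all were), from 69.8, 68.8 and 73.4 CPM at time 0 to 42.5, 49.5 and 45.4 CPM (log2 fold change -0.63 ± 0.06, adjusted p = 4.2e-07, edgeR), and 4 of the 6, Slc39a11 included, fell by the adjusted p (36.5% of all tested genes did) against 1 that rose (34.4%). Their median log2 fold change was -0.33 at 24 hours, beside -0.02 for all tested genes. Slc39a13, a transporter of the Golgi, was the one that rose (0.13 ± 0.05, adjusted p = 0.026, edgeR). Its value under other scalings is not given here, and total counts put the median of all genes at -0.24 in this comparison. The brain metallothionein Mt3 was not among the genes used here, and Mt4, of stratified epithelium, had 0 to 3 counts per library and was not tested.

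The lists of other metal genes were read in the same way. Of 8 genes that respond to metals and oxidants, none was called at 12 hours, beside 1.60% of all tested genes, and 4 were at 24 hours, 2 in each direction, beside 28.8%. By the adjusted p all 8 passed at 24 hours, 2 that rose (34.4% of all genes did) and 6 that fell (36.5%), beside 70.9% in either direction, and 2 had fallen at 12 hours, as 3.47% of all genes had. Hmox1, which breaks down heme, rose by 1.47 ± 0.13 on the log2 scale, from 7.03 to 9.29 CPM at time 0 to 18.6 to 26.2 CPM at 24 hours (adjusted p = 2.2e-07, edgeR), and Selenow, a small selenoprotein, by 0.72 ± 0.07. The heat shock genes Hspa1a and Hspa1b both fell by 1.70 on the log2 scale (± 0.08 and 0.07), but are near-identical copies whose reads cannot be told apart with certainty. Those that fell without being called were Srxn1 (by 0.51 on the log2 scale), Gclc (by 0.46), Gclm (by 0.35) and Txnrd1 (by 0.14), of which Gclc and Gclm, the subunits of the first enzyme of glutathione synthesis, had fallen by 0.15 and 0.18 at 12 hours (adjusted p = 0.017 and 0.0033). The median of the 8 genes at 24 hours was -0.41.

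Of 8 copper genes, none was called at 12 hours, beside 1.60% of all tested genes, and 1 at 24 hours, beside 28.8%: Cox17, the chaperone that brings copper to cytochrome oxidase. Cox17 was at 6.72 to 7.99 CPM before and 8.96 to 10.5 CPM after 12 hours, a rise of 0.44 ± 0.10 on the log2 scale (adjusted p = 0.0052), and at 1.69 to 1.91 CPM at 24 hours, lower by 2.04 ± 0.13 on that scale (adjusted p = 1.3e-08). The 3 times did not overlap. By the adjusted p 5 of the 8 fell at 24 hours, Cox17, Slc31a2 (by 0.40), Sco1 (by 0.33), Atp7a (by 0.26) and Ccs (by 0.23), and 2 rose, the copper importer Slc31a1 (0.48) and the chaperone Atox1 (0.21); of all tested genes 36.5% fell and 34.4% rose. Their median at 24 hours was -0.25.

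Of 9 iron genes, 8 were tested. At 12 hours 2 of the 8 were called, both higher, beside 1.60% of all tested genes: Slc11a2, which imports iron and other divalent metals, by 1.18 ± 0.06 on the log2 scale (adjusted p = 7.5e-10), and Steap4, a reductase of iron and copper, by 1.01 ± 0.06 (adjusted p = 1.8e-09, edgeR). Steap4 started at 161 to 165 CPM, was at 295 to 368 CPM after 12 hours and at 100 to 121 CPM after 24, a course that, like that of Slc39a1, was highest at 12 hours. At 24 hours Slc11a2 (1.37 ± 0.07) and the ferritin heavy chain Fth1 (0.63 ± 0.05) were called higher and the reductase Steap3 lower (-0.95 ± 0.40, adjusted p = 0.047), 3 of 8 beside 28.8% of all tested genes. Steap3 had 19 to 25 counts per library at time 0 and 6 to 15 at 24 hours, under 1 CPM. By the adjusted p 4 of the 8 rose at 24 hours (34.4% of all tested genes did) and 2 fell (36.5%). Beside those called, Tfrc (0.46) and Ftl1 (0.33) rose and Steap4 fell by 0.53 on the log2 scale. The median of the 8 iron genes was 0.02 at 12 hours and 0.21 at 24 hours.

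**Figure D4:**
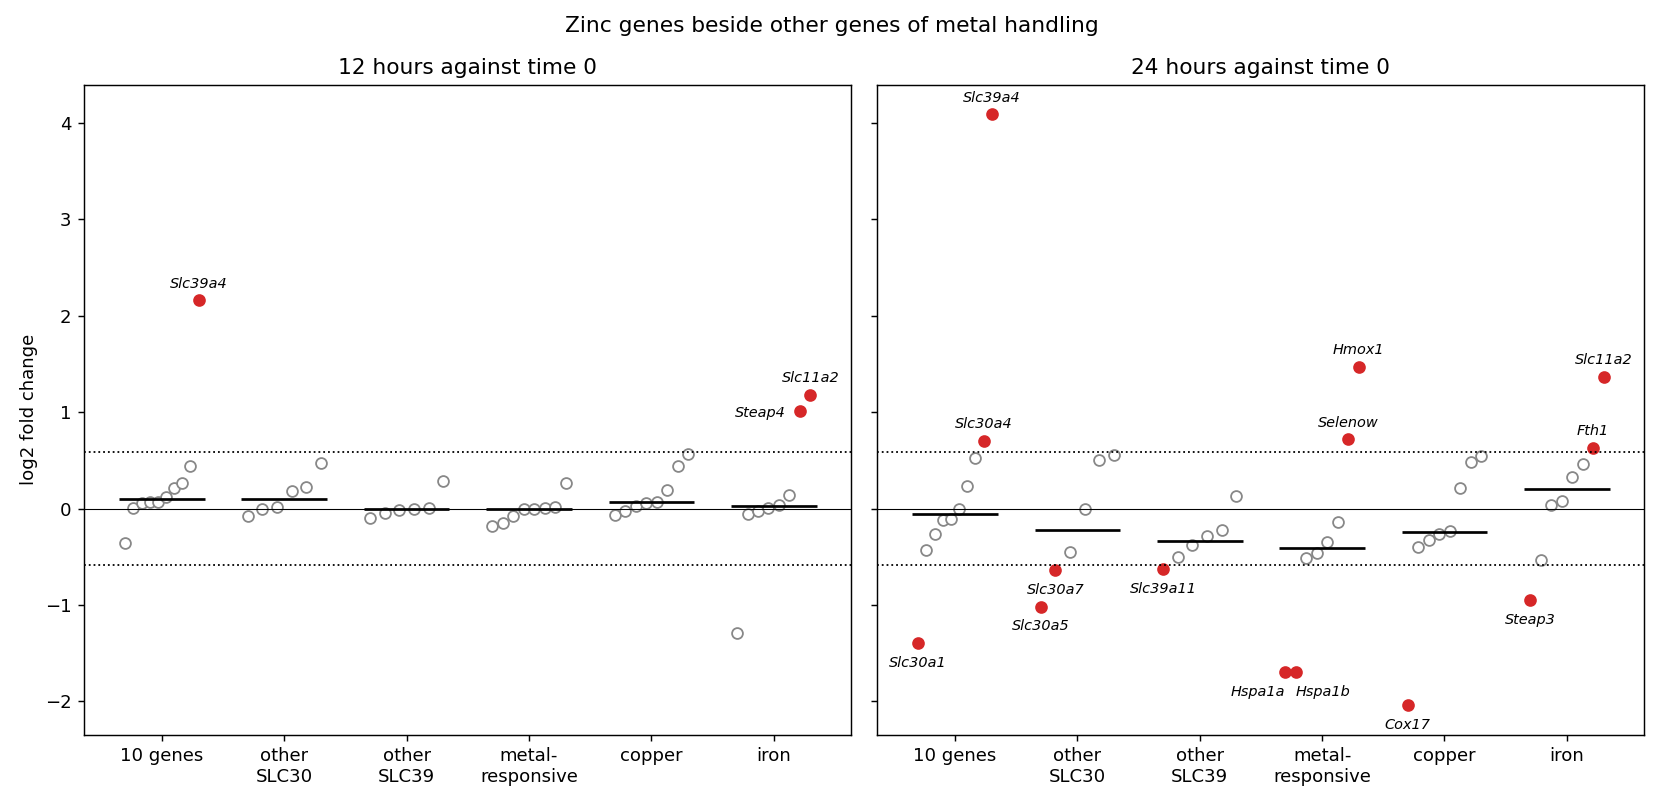
Log2 fold change of the 10 genes and of 5 lists of other metal genes at 12 and 24 hours against time 0; each point is a gene, filled red points are called and named, bars are medians of the lists and dotted lines mark 1.5-fold. At 12 hours the called genes are Slc39a4, Slc11a2 and Steap4, and at 24 hours they spread from Cox17 at -2.04 to Slc39a4 at 4.09.

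The genes whose levels followed those of Mt1, Mt2 and Slc39a4 most closely were looked up among 8350 tested genes of at least 10 CPM on average, by Pearson's correlation of log2 CPM over the 9 libraries. They were Galk1 (0.973), Lonp1 (0.965) and Ltbp3 (0.965) for Mt1, Usp22 (0.991), Bcl6 (0.983) and Slc4a4 (0.982) for Mt2, and Suco (0.992), Serpinb9 (0.992) and C3 (0.991) for Slc39a4. The 9 points are 3 times of 3 libraries, so that any gene with a like order of the times correlates, and the values are a description.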

How the data were processed

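RNA-Seq of 9 MyC-CaP libraries was used. The authors prepared TruSeq mRNA libraries, trimmed paired-end reads with Cutadapt 4.5, aligned them with STAR 2.7.11a to GRCm38.p6 and counted them per gene with featureCounts 2.0.2, and the table they deposited holds the raw counts, with no normalization. How the 15384 genes of the table were chosen is not given in the sources used here, nor is the strand setting. The 10 genes and the lists of other metal genes were chosen with earlier results of these data known.

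For each of 3 comparisons, edgeR 4.0.16 (R 4.3.3, limma 3.58.1) was run on the 6 libraries with its quasi-likelihood test, after filterByExpr and TMM scaling and without a block. The SE is the log2 fold change divided by the square root of the test's F. Positions and lengths come from GENCODE M21 on the same assembly in place of the authors' M24; 15374 of 15384 genes were found (99.9%). Genes named are the 10, list members called in any comparison, and the 3 best correlated genes for Mt1, Mt2 and any of the 10 called at 12 hours; further list members are named beside them, chosen after their values were seen.

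Alternatives were RLE, upper-quartile and total-count scaling, DESeq2 1.42.0, no filter, all 9 libraries in 1 fit, and the replicate number as a block. Others were loess offsets for length and GC content (span 0.3) without and with the block, the adjusted p alone, and leaving out each library. The offsets used the length of all exons of a gene and the GC content of its longest transcript. Fold changes and calls of the other listed genes are given under the main setting only, and their dependence on the alternatives was not examined. The calculations were tested on simulated data. Some markers of luminal epithelium are not reported here.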

Additional observations from a re-analysis of the deposited data

Results flagged for a closer look

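For 4 of the genes, the effect at 24 hours against time 0 differed from that at 12 hours by a direct test of 24 against 12 hours that also passed 1.5-fold (edgeR's quasi-likelihood test, 3 libraries against 3), beside 25.7% of all tested genes. The log2 fold change from 12 to 24 hours was 1.96 for Slc39a4 (adjusted p = 5.4e-07), -1.03 for Slc30a1 (adjusted p = 1.2e-05), 0.59 for Slc30a4 (adjusted p = 1e-07) and -0.62 for Slc39a10 (adjusted p = 1.3e-05). Without the first library of 24 hours, Slc30a4 (0.56) and Slc39a10 (-0.54) no longer passed 1.5-fold, which left 2 of the 4. In each case all 3 libraries of 24 hours lay on 1 side of all 3 libraries of 12 hours, as did 73.8% of all tested genes. The mitochondrial share and TMM factors of the 24 hour libraries differ from those of 12 hours as well, and their part in these values was not tested.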

How the results depend on the processing

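Over 30 log2 fold changes of the 10 genes and 15 alternatives each, 415 of 450 values kept their direction and stayed called or not called (adjusted p and 1.5-fold together), 10 lost the call, 2 gained it and 23 turned sign. By the adjusted p alone, 31 values were no longer at 0.05 or less and 12 came to be, in 12 of the 30. Without the fold threshold, 4, 7 and 10 of the 10 genes passed at 12 hours, at 24 hours and between them, and 1178, 8119 and 8124 of all tested genes. Leaving out 1 library gave 2 to 4 of the 10 genes called from 12 to 24 hours, with 2 without the first library of 24 hours. The replicate numbers do not pair the libraries (correlations of deviations from -0.11 to 0.06), and the block changed no call of the 10 genes, leaving 1, 3 and 4 called; with it, the adjusted p was 0.056 for Slc30a1 at 12 hours. Slc30a4 at 24 against 12 hours lost the call at 0.576 with all 9 libraries in 1 fit. Total counts put the median gene of 24 hours at -0.24 against time 0 and -0.22 against 12 hours. At 24 hours, total counts also put Slc39a10 (-0.65 against time 0) and Slc39a1 (-0.65 against 12 hours) past the call. They split the called genes at 24 hours into 698 higher and 3008 lower, in place of 1374 and 1924, and from 12 to 24 hours into 484 and 2830, in place of 1184 and 1740.

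Values that turned sign were small in most cases. At 12 hours Slc39a14 was at -0.0022 with upper-quartile factors and -0.0081 with total counts, and from -0.0208 to 0.0282 with a library left out. At 24 hours against time 0, Slc39a1 was at 0.0118 with RLE factors, 0.0307 with upper-quartile factors and 0.0116 with DESeq2, and from -0.0942 to 0.0788 with a library left out. Against 12 hours Mt1 was at -0.0393 with total counts. With the length and GC correction, and with that correction and the replicate block, Mtf1 was at 0.0867 and 0.0875 and Slc39a14 at 0.2287 and 0.2295 against time 0; against 12 hours Mt1 was at -0.0481 in both, Mt2 at -0.0770 and -0.0773, Mtf1 at 0.0274 and 0.0294 and Slc39a14 at 0.2206 and 0.2207. The cause was not tested. At this depth Slc39a4 at time 0 rests on 11 to 12 counts per library.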
